A study of Rattus norvegicus with 31 samples.

Results

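The genes described here encode the nuclear part of the oxidative phosphorylation system, the chain of protein complexes in the inner mitochondrial membrane that burns reducing equivalents and makes ATP. They were taken from 31 arrays of rat striatum as all probes whose gene symbol begins with Nduf, Uqcr, Cox4 to Cox8 or Atp5, or is Cyc1 or Sdha to Sdhd. Of 69 genes with such a probe, 62 were detected (detection p under 0.01) on at least 4 arrays and were tested, among 9732 probes tested in all. Each of the 62 genes had 1 probe. They comprised 27 subunit genes of complex I, 7 complex I assembly factors of the Ndufaf series, 4 genes of complex II, 4 of complex III, 8 of complex IV and 12 of complex V.

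Complex I takes electrons from NADH and complex II takes them from succinate, complex III passes them on to cytochrome c, complex IV reduces oxygen, and complex V, the ATP synthase, uses the proton gradient that complexes I, III and IV build. Most subunits are made from nuclear genes in the cytosol and imported, and a small core of hydrophobic subunits is made from mitochondrial DNA. Striatal neurons depend heavily on this supply of ATP, and toxins that block complex I or complex II damage the nigrostriatal system or the striatum in experimental animals. Methamphetamine (METH) releases dopamine from striatal terminals, and 6-hydroxydopamine (6-OHDA) is a toxin that catecholamine neurons take up.

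Striata of male Sprague-Dawley rats were hybridised to Illumina RatRef-12 arrays, 1 array per striatum. Hemiparkinsonian rats had received 5 µl of 6-OHDA at 2 µg/µl in the left medial forebrain bundle, which carries the dopamine fibres, and gave 5 arrays of the non-lesioned side after saline (SNL), 6 of the lesioned side after saline (SL), 6 of the non-lesioned side after METH (MNL) and 6 of the lesioned side after METH (ML). Rats that got no 6-OHDA gave 4 arrays after saline (SC) and 4 after METH (MC). METH was given at 2.5 mg/kg and striata were taken 2 h after the injection. All hemiparkinsonian rats, those of the SNL and SL groups included, had been given apomorphine and METH in earlier rotation tests. Which striata are the left and right side of a single rat is not given, and the p-values below therefore measure the spread between striata. Arrays are named by group and by the striatum number of their label. The running array numbers of the labels go group by group, so array order and group cannot be told apart.

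The arrays detected 8042 to 9451 probes each. All 12 markers of medium spiny neurons with a probe (of 14 listed, among them Ppp1r1b, Drd1, Drd2 and Penk) were detected on 31 of 31 arrays, and Th, Slc6a3, Slc18a2, Ddc and Pitx3, which mark dopamine neurons, on 0. Aldh1a1 and Nr4a2 of the same list were detected on 31 and 30 arrays. Over probes outside the oxidative phosphorylation and ribosomal protein genes, 28 arrays had a median correlation with the other arrays of 0.978 to 0.985. The arrays of SNL replicate 19, SC replicate 6 and SC replicate 8a lay lower, at 0.964, 0.963 and 0.969. They detected 8194, 8989 and 9451 probes, of which the first is the lowest of the SNL group and the last the highest of all arrays. These 3 arrays stand apart below, and results that rest on them are given with and without them. The choice of these arrays was made after the data were seen.

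Signals were corrected for background, quantile normalised and put on the log2 scale, on which a difference of 1 is a doubling. Signals of different probes cannot be set against each other, so levels are compared between arrays for the same gene only, and a gene's deviation is its log2 signal less its own median over the 31 arrays. The median deviation of the 62 genes was between -0.11 and 0.14 in 28 arrays. In SNL replicate 19 it was -0.79, in SC replicate 6 it was -0.70, and in SC replicate 8a it was -0.48, while the median over all probes tested was between -0.01 and 0.06 in every array. The signals of the oxidative phosphorylation genes were thus low in 3 saline-treated striata, 1 of the non-lesioned side and a pair of controls, and the other striata of the same groups did not share this.

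**Figure D1:**
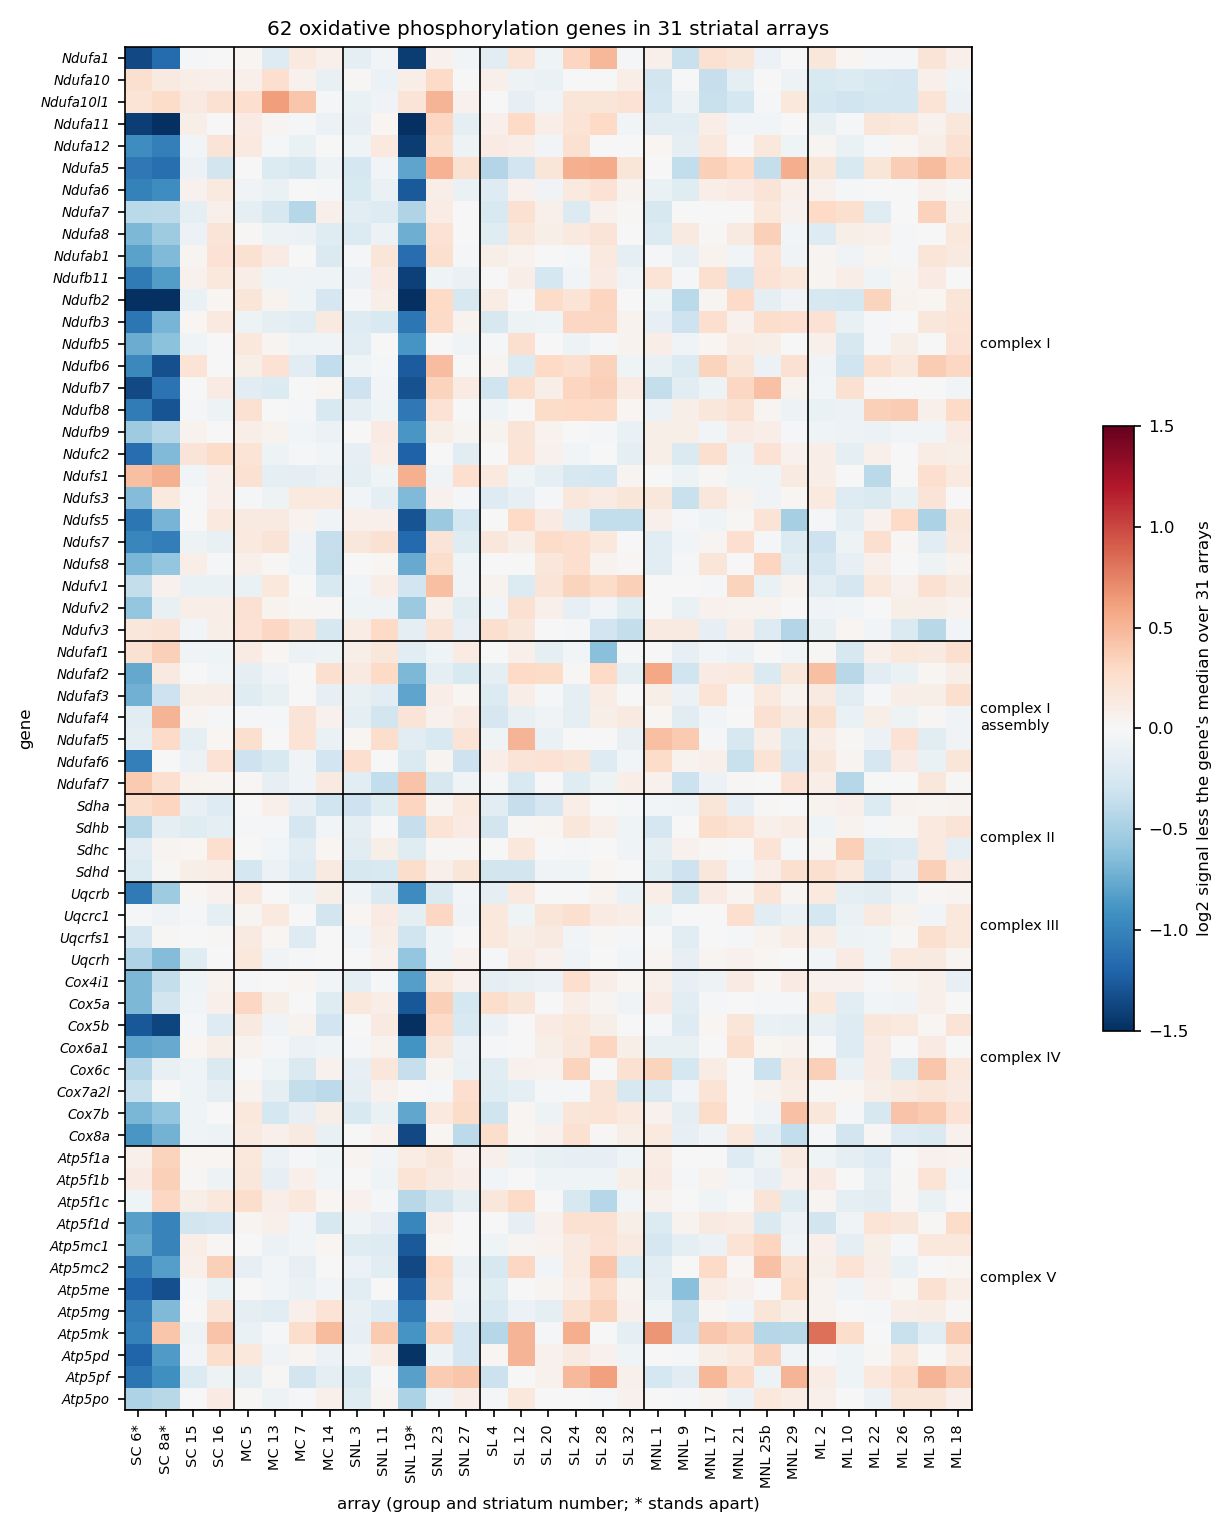
Heat map of the 62 genes (rows, by complex) in the 31 arrays (columns, by group); the colour is the log2 signal less the gene's median over 31 arrays, and it does not deepen beyond 1.5 in either direction. The columns of SC 6, SC 8a and SNL 19 are blue for most genes of complexes I, III, IV and V, with Ndufs1 red in the same columns.

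The low signals did not fall evenly on the complexes. In SNL replicate 19, 45 of the 62 genes were lower than in each of the 28 arrays that do not stand apart (15.3% of all probes tested), in SC replicate 6 also 45 (16.1% of all probes) and in SC replicate 8a 36 (13.7% of all probes). For complex I these counts were 23, 22 and 19 of 27 genes, for complex IV 7, 7 and 6 of 8 genes, and for complex V 9, 9 and 8 of 12 genes. For complex II they were 1, 1 and 0 of 4 genes, and for the assembly factors 2, 3 and 1 of 7. The 3 arrays were exactly the lowest 3 of all 31 for 36 genes, or 58.1%, against 6.66% of all probes tested. These 36 comprised 19 genes of complex I, 2 of complex III, 6 of complex IV, 8 of complex V and 1 assembly factor, Ndufaf3, and no gene of complex II. The same 3 arrays were the highest 3 for 3 genes, Ndufs1, Sdha and Ndufaf7, which is 4.84% of the genes against 4.46% of all probes.

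**Figure D2:**
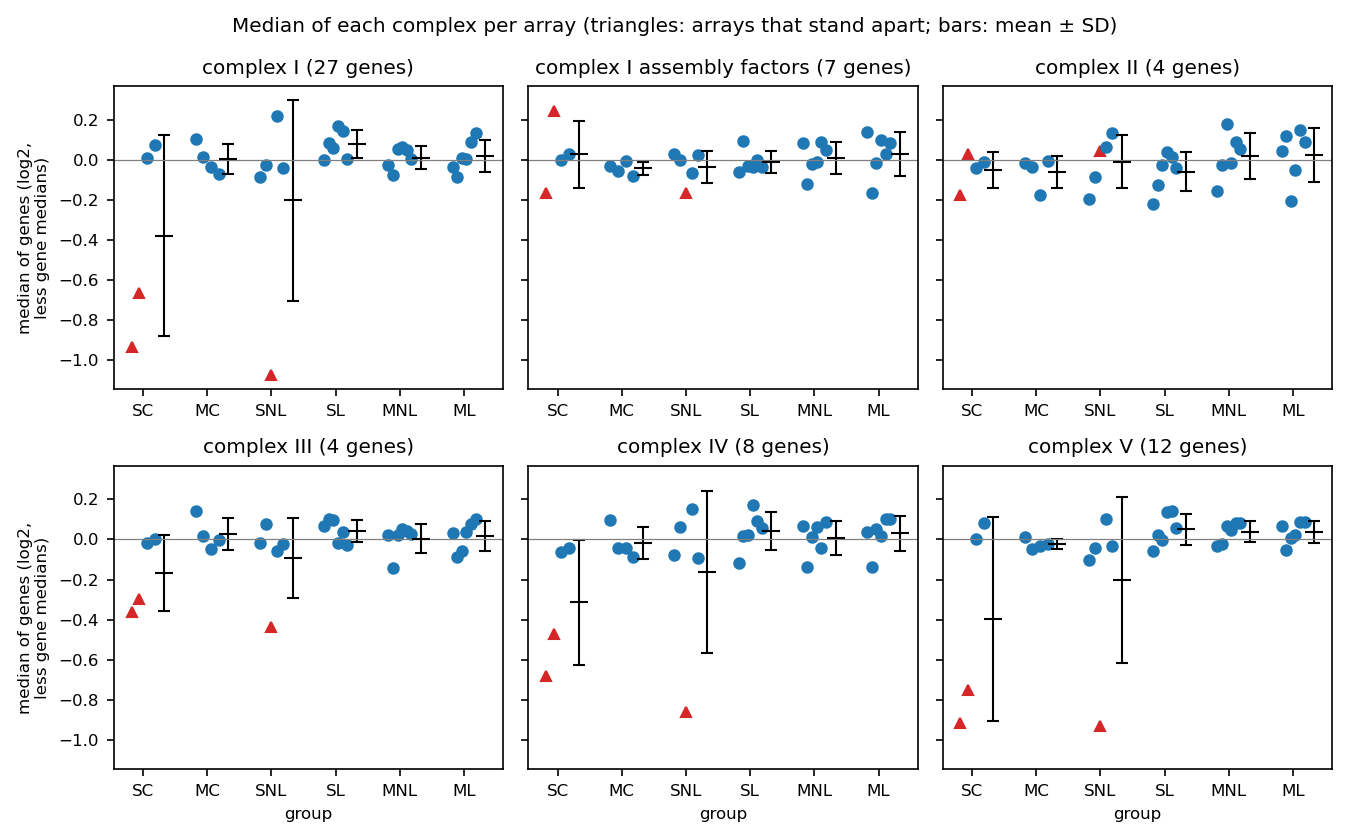
Median deviation of the genes of each complex (log2) in every array, by group; circles and triangles are arrays, triangles those that stand apart, and black bars are the group mean ± SD of the 4 to 6 arrays. The triangles lie at -1.07, -0.93 and -0.66 for complex I and at -0.93, -0.92 and -0.75 for complex V, and at 0.04, -0.18 and 0.03 for complex II, inside the range of the other arrays.

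Within complex I the accessory subunits, which surround the catalytic core, had the lower median. The median deviation of the 21 accessory genes was -1.14 in SNL replicate 19, -1.01 in SC replicate 6 and -0.70 in SC replicate 8a, against -0.12 to 0.22 in the other arrays. The median of the 6 core genes, which include the flavin and iron-sulphur proteins, was -0.61, -0.61 and -0.02 in the same order. Single genes did not keep to this divide. The core gene Ndufs7 lay at -1.16, -0.97 and -1.04, and it and the core gene Ndufs8 had these 3 arrays as their lowest. The accessory genes Ndufa10 and Ndufa10l1 were above their medians in all 3. Within complex V the c ring genes Atp5mc1 and Atp5mc2, whose product forms the rotor in the membrane, had a median of -1.31, -0.91 and -0.92, and the 3 peripheral stalk genes had -0.81, -1.09 and -0.85. The 4 genes of the F1 head, where ATP is made, had -0.15, 0.00 and 0.33. The F1 genes differed among themselves. Atp5f1d, which encodes the delta subunit of the central stalk, had log2 signals of 9.96, 10.12 and 9.94 in these arrays and of 10.65 to 11.21 in the others. Atp5f1b, the catalytic beta subunit, deviated by 0.20, 0.12 and 0.35. Genes of 1 complex, whose products are assembled together, thus had unlike signals in the same array.

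**Figure D3:**
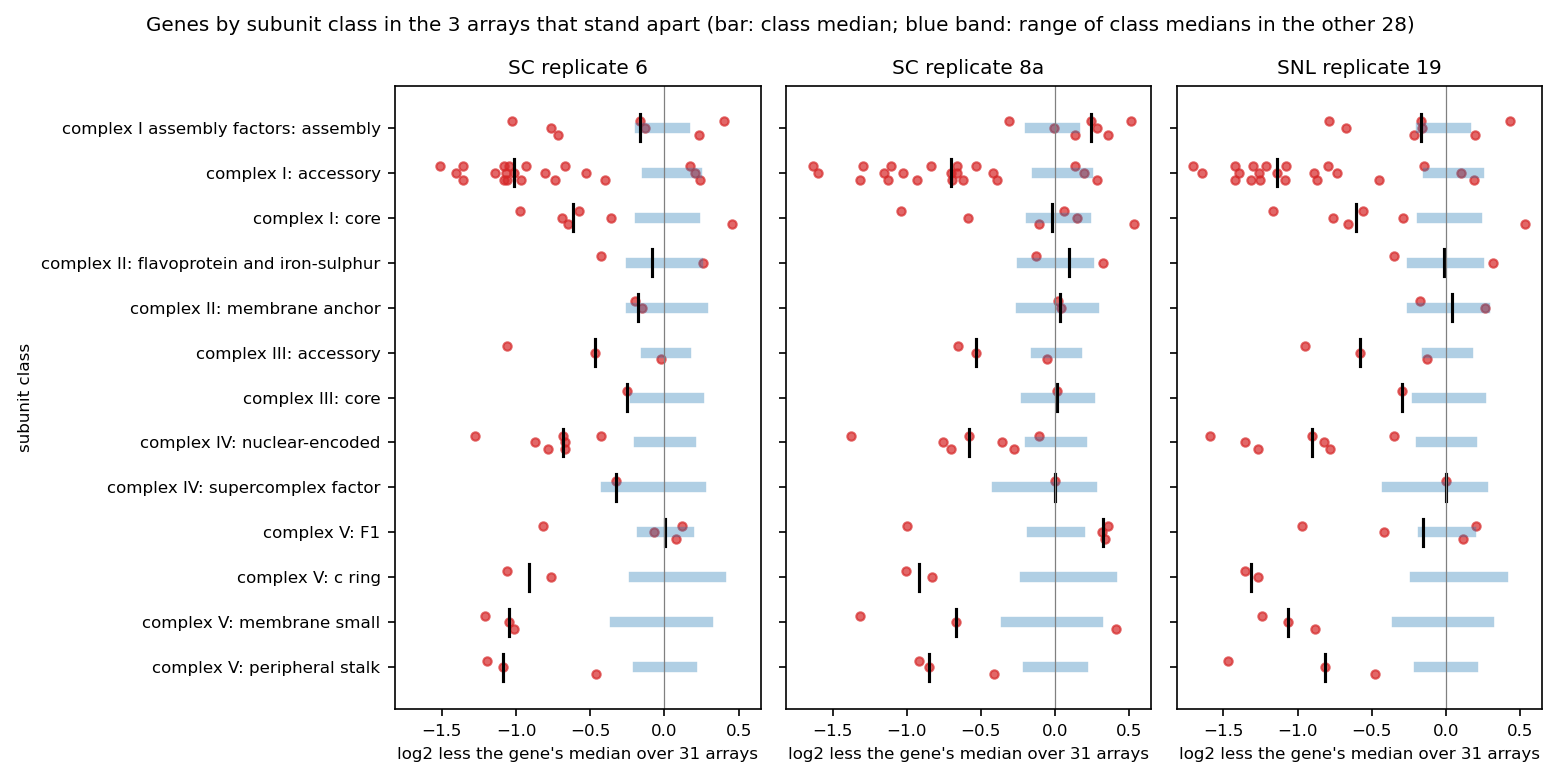
Deviation of each gene (red points, log2) in the 3 arrays that stand apart, by complex and class of subunit; black bars are class medians and blue bands the range of the class medians in the other 28 arrays. The medians of the accessory genes of complex I, the c ring and the peripheral stalk lie left of the bands in all 3 panels, and both class medians of complex II lie inside them.

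The letters of the promoters were read for 4 known motifs. The part of these motifs in the low signals of the 3 arrays was not tested. RefSeq gives a window of 300 bases, 250 before and 50 after the start site, for 54 of the 62 genes (rat assembly GRCr8); the entries for Atp5pd, Cox6a1, Cox6c, Ndufa10l1, Ndufa8, Ndufb9, Ndufaf6 and Uqcrb were not matched. A core of the sites of ETS factors such as GABP, CGGAAG, was found on either strand in 31 of the 54 windows (57.4%), against 16.6% of all 33469 windows of this length. The latter were taken whether or not the gene was detected in these striata. By complex the ETS core was in 10 of 24 windows (complex I), 3 of 6 (assembly factors), 3 of 4 (complex II) and 3 of 3 (complex III). For complex IV it was in 4 of 6 and for complex V in 8 of 11. The NRF1 core, a palindrome that reads the same on both strands and stands in capitals in the window of Ndufa11 below, was found in 6 (11.1% against 0.852%), in Ndufa11, Ndufaf4, Ndufaf5, Atp5mc2, Atp5me and Atp5po. The YY1 core AAGATGGCG was found on either strand in 5 (9.26% against 1.73%), in Ndufa6, Ndufb8, Ndufs7, Uqcrc1 and Atp5pf. TATAAA was found on either strand in 3 (5.56% against 14.2%), in Ndufa7, Atp5mg and Atp5mk. NRF1, GABP and YY1 are transcription factors long known to bind promoters of respiratory genes, and a match of letters is not a binding site. Shown are the windows of 3 genes that were low in the 3 arrays (Ndufa11, Cox5b and Ndufs7) and of Ndufs1, which was high, 5′ to 3′ on the strand of the gene, with matches of the 4 motifs in capitals. In the window of Ndufa11 (chr9:1637364-1637663, plus strand) the capitals are 2 overlapping NRF1 cores.
Ndufa11: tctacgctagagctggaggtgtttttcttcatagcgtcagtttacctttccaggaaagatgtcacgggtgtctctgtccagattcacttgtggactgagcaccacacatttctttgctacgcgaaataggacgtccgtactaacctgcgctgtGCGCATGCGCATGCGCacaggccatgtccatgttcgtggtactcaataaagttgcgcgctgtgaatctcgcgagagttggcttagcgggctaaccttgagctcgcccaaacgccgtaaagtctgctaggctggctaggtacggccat
In the window of Cox5b (chr9:46417587-46417886, plus strand) they are 3 ETS cores.
Cox5b: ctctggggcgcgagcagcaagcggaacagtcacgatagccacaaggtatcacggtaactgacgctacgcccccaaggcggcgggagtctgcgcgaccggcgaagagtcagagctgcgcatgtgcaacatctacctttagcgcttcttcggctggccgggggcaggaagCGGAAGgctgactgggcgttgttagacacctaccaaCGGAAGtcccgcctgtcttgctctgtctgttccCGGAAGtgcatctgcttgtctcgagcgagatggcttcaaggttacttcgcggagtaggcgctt
In the window of Ndufs7 (chr7:10110449-10110748, minus strand) they are 1 YY1 core, which begins at base 5 of the transcript.
Ndufs7: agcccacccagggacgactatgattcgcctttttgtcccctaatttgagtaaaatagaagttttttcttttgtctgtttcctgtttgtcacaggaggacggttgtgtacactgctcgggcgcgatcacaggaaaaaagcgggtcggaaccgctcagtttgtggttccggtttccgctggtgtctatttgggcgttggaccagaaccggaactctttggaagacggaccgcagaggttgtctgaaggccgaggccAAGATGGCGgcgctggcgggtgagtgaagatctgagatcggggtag
In the window of Ndufs1 (chr9:72073556-72073855, minus strand) they are 1 ETS core on the other strand.
Ndufs1: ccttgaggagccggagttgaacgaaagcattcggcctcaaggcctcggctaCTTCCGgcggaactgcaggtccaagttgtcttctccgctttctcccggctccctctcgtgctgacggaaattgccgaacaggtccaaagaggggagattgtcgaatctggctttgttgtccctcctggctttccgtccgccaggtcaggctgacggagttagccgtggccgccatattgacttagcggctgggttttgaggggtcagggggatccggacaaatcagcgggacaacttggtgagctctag
The ETS core is thus present both in a gene that was low and in a gene that was high in these arrays.

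Among the complex I genes, Ndufb2, an accessory subunit of the membrane arm, had the largest difference between the control groups. Its log2 signal was 9.63, 9.55, 11.05 and 11.18 in SC replicates 6, 8a, 15 and 16, and 11.34, 11.20, 11.08 and 10.90 in MC replicates 5, 13, 7 and 14. In the SNL replicates 3, 11, 19, 23 and 27 it was 11.13, 11.24, 9.50, 11.44 and 10.91. The 3 arrays that stand apart were over 1 log2 unit below all others, and the remaining SC and SNL striata were inside the range of the MC, SL, MNL and ML striata. The SL arrays lay between 11.14 and 11.47 with a median of 11.31. The MNL arrays lay between 10.74 and 11.44 (median 11.09) and the ML arrays between 10.88 and 11.48 (median 11.19). MC minus SC was 0.78 ± 0.31 (SE, limma, adjusted p = 0.769), and 0.02 ± 0.17 without the 3 arrays.

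Ndufa11, another accessory subunit of the membrane arm, followed the same order of arrays. It was 9.58, 9.36, 11.07 and 10.99 in the SC replicates and 11.12, 11.04, 10.98 and 10.90 in the MC replicates, in the order given for Ndufb2. In the SNL replicates it was 10.87, 11.02, 9.29, 11.30 and 10.85. Again only SC replicates 6 and 8a and SNL replicate 19 lay below 10. In the SL, MNL and ML arrays Ndufa11 had medians of 11.15, 10.95 and 11.10. SL minus SNL was 0.48 ± 0.26 (SE, limma, adjusted p = 0.908), the highest of the 62 genes in that comparison, and 0.14 ± 0.09 without the 3 arrays.

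Ndufs1, the largest core subunit, which carries several iron-sulphur clusters, stood against its own complex. Its deviation was 0.54 in SNL replicate 19, 0.46 in SC replicate 6 and 0.53 in SC replicate 8a, against -0.40 to 0.25 in the other arrays. Its log2 signal was 10.00 and 10.12 in the other SC replicates, 10.27, 9.91, 9.90 and 9.94 in the MC replicates, and 9.91, 9.98, 10.58, 9.99 and 10.30 in the SNL replicates. The 3 arrays in which Ndufb2 and Ndufa11 were lowest were those in which Ndufs1 was highest. Its medians were 9.94 in SL, 10.01 in MNL and 10.10 in ML arrays. MC minus SC was -0.29 ± 0.15 (SE, limma, adjusted p = 0.772), the lowest of the 62 genes, and -0.06 ± 0.15 without the 3 arrays.

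**Figure D4:**
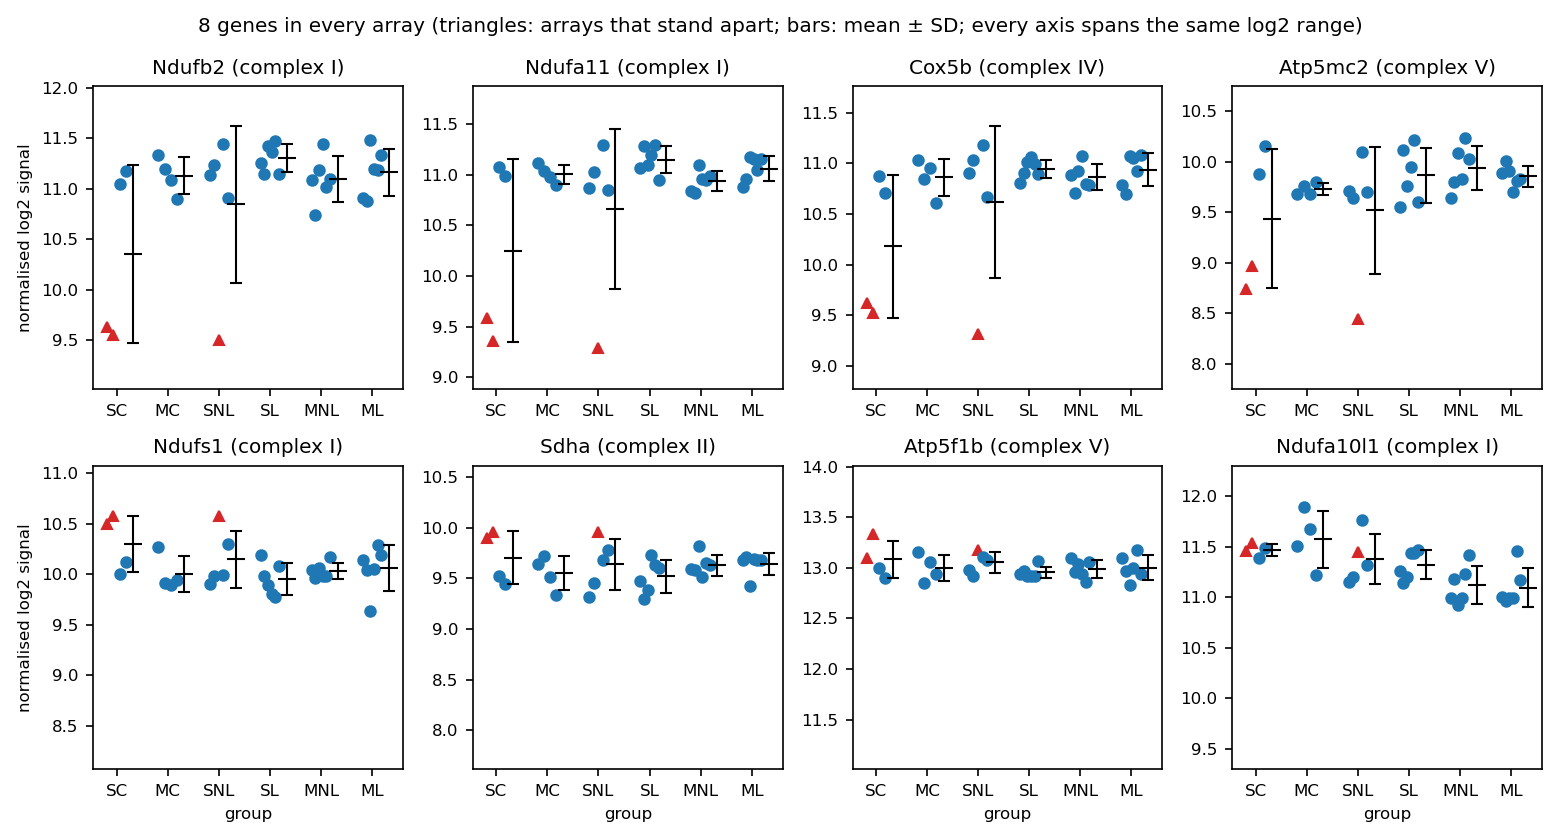
Normalised log2 signal of 8 genes in every array, by group, with triangles for the arrays that stand apart and black bars for the group mean ± SD; every panel spans the same log2 range. The triangles are lowest for Ndufb2, Ndufa11, Cox5b and Atp5mc2, highest for Ndufs1 and Sdha, and among the others for Ndufa10l1, whose medians were 11.08 in MNL and 11.00 in ML arrays and 11.34 in SL arrays.

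Other complex I genes are named for their brightness or the size of a difference. Ndufb9, the brightest probe of complex I, had group means from 12.51 (SC) to 12.79 (MNL), and Ndufv3, the dimmest, from 6.01 (ML) to 6.27 (MC). Ndufa5, an accessory subunit of the matrix arm, had the largest difference between SNL and SC, 0.57 ± 0.25 (SE, limma, adjusted p = 0.986). Its signals were 10.54, 10.77, 10.01, 11.32 and 11.03 in the SNL replicates and 9.74, 9.68, 10.72 and 10.53 in the SC replicates. The groups overlapped, and without the 3 arrays the difference was 0.29.

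Ndufa10 and Ndufa10l1 had the most negative differences of the 62 genes in MNL minus SNL and in ML minus SNL. Ndufa10 encodes an accessory subunit and Ndufa10l1 is a near copy of it in the rat genome. Their probes may share transcripts, and their deviations had a Pearson correlation of 0.89 over the 31 arrays, which share their normalization. The Ndufa10l1 signal was 11.15, 11.20, 11.44, 11.76 and 11.32 in the SNL replicates, 11.14 to 11.47 (median 11.34) in the SL arrays, 10.93 to 11.42 (median 11.08) in the MNL arrays and 10.96 to 11.46 (median 11.00) in the ML arrays. The MNL and ML arrays lay lower than the SNL arrays on average, and their ranges overlapped. In the control rats it was 11.46, 11.54, 11.39 and 11.49 in the SC replicates and 11.51, 11.89, 11.67 and 11.22 in the MC replicates. MNL minus SNL was -0.26 ± 0.12 (SE, limma, adjusted p = 0.839) and ML minus SNL was -0.28 ± 0.12 (adjusted p = 0.930). Without the 3 arrays they were -0.24 and -0.27. For Ndufa10 the same differences were -0.20 ± 0.09 and -0.21 ± 0.09, and -0.19 and -0.21 without the 3 arrays. Unlike the shift of the median over the 62 genes, these differences did not rest on SNL replicate 19, in which both genes were within the range of the other arrays. They leaned in part on SNL replicate 23, the highest SNL array for both genes. Without that array they were -0.16 and -0.19 for Ndufa10l1 and -0.15 and -0.16 for Ndufa10. No test adjusted over all probes called either gene. Over the 6 groups Ndufa10l1 had the lowest p of the 62 genes (moderated F test in limma, adjusted p = 0.310), and without the 3 arrays it was again the lowest (adjusted p = 0.677).

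Among the assembly factors, which help to build complex I and are not part of it, Ndufaf1 and Ndufaf7 are named for the size of their differences. Ndufaf1 had group means of 6.14 ± 0.25 (SL, n = 6), 6.22 ± 0.05 (MNL, n = 6), 6.26 ± 0.10 (MC, n = 4), 6.29 ± 0.14 (SNL, n = 5), 6.33 ± 0.17 (ML, n = 6) and 6.38 ± 0.21 (SC, n = 4; all SD). ML minus SL was 0.19 ± 0.10 (SE, limma, adjusted p over 0.99), the highest of the 62 genes. Leaving out SL replicate 28, the lowest array at 5.64, lowered it to 0.09. Ndufaf7, a methyltransferase for a core subunit, was 9.08, 8.93, 8.73 and 8.73 in the SC replicates and 8.51, 8.31, 9.11, 8.45 and 8.64 in the SNL replicates. It lay highest in the 3 arrays that stand apart. Ndufaf2 was detected on 22 of the 31 arrays, with group means from 5.22 to 5.50.

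The median of complex II, which is also an enzyme of the citric acid cycle, lay inside the range of the other arrays in all 3 arrays that stand apart. Sdha, the flavoprotein, was 9.90, 9.96, 9.52 and 9.45 in the SC replicates, 9.64, 9.72, 9.51 and 9.34 in the MC replicates, and 9.32, 9.46, 9.96, 9.68 and 9.78 in the SNL replicates. The 3 arrays that stand apart were the highest of all for Sdha. The iron-sulphur subunit Sdhb lay at -0.35, -0.43 and -0.13 from its median in SNL replicate 19, SC replicate 6 and SC replicate 8a. Sdhc and Sdhd, the membrane anchors, had group means of 11.55 to 11.63 and of 10.29 to 10.48. ML minus SL was 0.19 ± 0.11 for Sdhd (SE, limma, adjusted p over 0.99), with ranges of 10.14 to 10.75 in ML and 10.12 to 10.42 in SL arrays.

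In complex III the genes differed among themselves. Uqcrb, a small subunit near the ubiquinone site, was 10.91, 11.44, 11.99 and 12.04 in the SC replicates and 11.92, 11.75, 11.02, 11.75 and 11.93 in the SNL replicates. It was lowest in the 3 arrays that stand apart, whereas Uqcrc1, a core protein of the complex, had deviations of -0.13, -0.03 and -0.06 in them. Uqcrh, the hinge protein and the brightest probe of complex III, had the lowest unadjusted p of the complex for MC minus SC (0.35 ± 0.12, SE, limma, adjusted p = 0.769) and 0.12 without the 3 arrays. Uqcrfs1, the Rieske iron-sulphur protein, lay at -0.30, -0.26 and 0.01 in SNL replicate 19, SC replicate 6 and SC replicate 8a.

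In complex IV the subunits Cox6a and Cox8 were measured by 1 tissue form each. None of the 69 genes with a probe was a Cox6b form, Cox7a1 or Cox7a2. Cox7a2l, classed as a supercomplex factor and not as a subunit, is counted among the 8 genes of the complex. The liver-type or ubiquitous forms Cox6a1 and Cox8a were detected on all 31 arrays, and the heart and muscle forms Cox6a2 and Cox8b on 0 and 3 arrays. Cox8c, the testis form, was detected on 0. Cox6a1 was 12.81, 12.85, 13.63 and 13.69 in the SC replicates, 13.66, 13.57, 13.52 and 13.54 in the MC replicates, and 13.57, 13.66, 12.70, 13.77 and 13.52 in the SNL replicates. Its medians were 13.69 in SL, 13.62 in MNL and 13.60 in ML arrays. Outside the 3 arrays that stand apart the groups were within the same range.

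Cox8a, a small membrane subunit, was 11.78, 11.84, 10.43, 11.81 and 11.39 in the SNL replicates and 11.80 to 12.04 (median 11.86) in the SL arrays. SL minus SNL was 0.44 ± 0.18 (SE, limma, adjusted p = 0.908) and 0.19 ± 0.10 without the 3 arrays. In the ML arrays it was 11.51 to 11.85 (median 11.67), and ML minus SL was -0.22 ± 0.17 (adjusted p over 0.99). The ranges overlapped in both comparisons, although the SL median lay above the highest SNL array and the highest ML array. Cox5b, which binds zinc, was 9.62, 9.52, 10.88 and 10.71 in the SC replicates, 11.04, 10.85, 10.96 and 10.61 in the MC replicates, and 10.90, 11.04, 9.31, 11.18 and 10.67 in the SNL replicates. Its signals in the 3 arrays that stand apart, 9.31 to 9.62, lay below the 10.61 to 11.18 of all others. Cox4i1, the larger regulatory subunit, was 11.42, 11.73, 12.02 and 12.14 in the SC replicates and had means of 12.08 to 12.11 in the MC, SL, MNL and ML groups. Cox6c, the dimmest of the complex, was detected on 6 arrays only, with group means from 4.83 to 5.16.

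In complex V, Atp5f1b, the brightest probe of the complex, had group means of 13.08 ± 0.19 (SC, n = 4), 13.00 ± 0.13 (MC, n = 4), 13.05 ± 0.10 (SNL, n = 5), 12.96 ± 0.06 (SL, n = 6), 12.99 ± 0.09 (MNL, n = 6) and 13.00 ± 0.12 (ML, n = 6; all SD). Atp5f1c, the gamma subunit of the rotor, was 11.22, 11.12, 10.74, 10.88 and 11.01 in the SNL replicates and 11.09, 11.47, 11.24 and 11.31 in the SC replicates. SNL minus SC was -0.28 ± 0.12 (SE, limma, adjusted p = 0.986), the lowest of the 62 genes there, and -0.22 without the 3 arrays. SC replicate 6 lay below SNL replicates 3 and 11, and the other SC striata lay above all SNL striata.

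Atp5mc1 and Atp5mc2 encode the same mature c subunit with different import sequences, as does Atp5mc3, whose probe was detected on 0 arrays. Atp5mc1 was 11.98, 11.96, 10.89, 12.19 and 12.14 in the SNL replicates and 12.09 to 12.38 (median 12.25) in the SL arrays. Atp5mc2 was 9.71, 9.64, 8.44, 10.10 and 9.70 in the SNL replicates and 9.64 to 10.24 (median 9.92) in the MNL arrays. In both genes SNL replicate 19 was the lowest striatum of its group by over 1 log2 unit. Atp5pd, a peripheral stalk subunit, had the largest MNL minus SNL difference, 0.43 ± 0.21 (SE, limma, adjusted p = 0.839), and 0.15 without the 3 arrays. Its signals were 8.86, 9.03, 7.45, 8.85 and 8.67 in the SNL replicates and 8.87 to 9.26 (median 8.96) in the MNL arrays. Atp5pf, another stalk subunit, was 10.32, 10.55, 9.74, 10.93 and 10.98 in the SNL replicates and 9.46, 9.63, 10.35 and 10.47 in the SC replicates, with an SNL minus SC difference of 0.52 ± 0.23 (adjusted p = 0.986) and of 0.28 without the 3 arrays. Atp5mk, a small membrane subunit and the dimmest of the complex, had group means up to 6.78 and SDs up to 0.68.

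The effect of dopamine depletion alone was read from the lesioned against the non-lesioned side of saline-treated rats. In SL minus SNL, 51 of the 62 genes had a positive log2 fold change, with a median of 0.18 against -0.01 over all probes tested. None of the 62 passed an adjusted p of 0.05 in limma, where 0.0822% of all probes did; 3 genes (4.84%; Atp5mc1, Cox8a and Atp5pd, all higher) had an unadjusted p under 0.05, against 4.73% of all probes in both directions and 2.19% higher, and 0 genes passed the methods' t-test (0.493% of all probes). By complex the medians were 0.25 (complex I), 0.02 (assembly factors), -0.05 (complex II), 0.11 (complex III), 0.22 (complex IV) and 0.25 (complex V). They rested on SNL replicate 19: without the 3 arrays the median of the 62 genes was 0.04, and the medians of complexes I, IV and V were 0.05, 0.00 and 0.05. In that fit 0 genes passed the adjusted threshold (0.0411% of all probes) and 0 had an unadjusted p under 0.05 (2.35% of all probes). The 95% intervals then lay inside ±0.5 on the log2 scale for all 62 genes. Over all arrays they did so for 31 of the 62 genes. Each interval is for 1 gene and is not adjusted over the 62, and the 3 arrays were left out after the data were seen. A larger effect of the lesion is therefore not excluded.

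The effect of METH with dopamine terminals present was read in 2 places. On the non-lesioned side, MNL minus SNL had a median of 0.16 over the 62 genes (-0.01 over all probes). None passed the adjusted threshold in limma (0.113% of all probes did), 4 had an unadjusted p under 0.05 (6.45% against 5.21% of all probes), and 0 passed the methods' t-test (0.542% of all probes). Without the 3 arrays the median was 0.01, 0 genes passed the adjusted threshold (0.0925% of all probes) and 1, Ndufa10, had an unadjusted p under 0.05 (3.63% of all probes). In the control rats, MC minus SC had the largest median of all comparisons, 0.24 (-0.02 over all probes), and 51 genes were positive. None of the 62 passed the adjusted threshold in limma (0.0103% of all probes did), or the methods' t-test (0.497% of all probes). At an unadjusted p under 0.05, 12 genes were higher and 0 lower (19.4%), against 6.25% of all probes in both directions and 3.63% higher. The 12 were Ndufa1, Ndufa11, Ndufb2, Ndufb5, Ndufb8 and Ndufs7 of complex I, Uqcrb and Uqcrh of complex III, Cox5b and Cox8a of complex IV, and Atp5f1d and Atp5me of complex V. The SC group holds 2 of the arrays that stand apart. Without them the median was -0.01, 0 genes passed the adjusted threshold (0% of all probes) and 0 had an unadjusted p under 0.05 (3.37% of all probes). With SC replicate 6 alone left out the median was 0.10, and with SC replicate 8a alone left out it was 0.20.

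The effect of METH after dopamine loss, ML minus SL, involves none of the 3 arrays. The median of the 62 genes was 0.00, with 31 positive and 31 negative and a range from -0.23 (Ndufa10l1) to 0.19 (Ndufaf1). None passed the adjusted threshold in limma, as 0% of all probes did, 0 had an unadjusted p under 0.05 (1.9% of all probes), and 0 passed the methods' t-test (0.475% of all probes). The spread was smaller in the fit without the 3 arrays, where 0 genes passed the adjusted threshold (0% of all probes) and Cox8a and Ndufaf1 had an unadjusted p under 0.05 (2.58% of all probes). The 95% interval lay inside ±0.5 for 55 of the 62 genes in the fit of all arrays and for 61 without the 3. ML minus MNL, the lesioned against the non-lesioned side after METH, likewise had a median of 0.01 and a range from -0.10 (Ndufaf2) to 0.14 (Ndufa5). None of the genes passed in limma (0.123% of all probes did), 0 had an unadjusted p under 0.05 (2.21% of all probes) and 0 passed the methods' t-test (0.515% of all probes). In the fit without the 3 arrays 0 passed (0.144% of all probes) and 0 had an unadjusted p under 0.05 (2.77% of all probes). Ndufb9 and Ndufa7 were the next genes in either direction, at -0.09 and 0.13.

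ML minus SNL, which combines lesion and METH, had a median of 0.18 over the 62 genes, and 0.05 without the 3 arrays. None passed in limma (0.0925% of all probes did), 4 had an unadjusted p under 0.05 (6.45% against 4.52% of all probes) and 0 passed the methods' t-test (0.599% of all probes). With the 3 arrays left out, 0 passed in limma (0.0617% of all probes) and 1, Ndufa10, had an unadjusted p under 0.05 (3.21% of all probes). SL, MNL and ML minus SNL share the SNL arrays, so their likeness says nothing beyond the SNL values. SNL minus SC compared the non-lesioned side of hemiparkinsonian rats with control rats, and both groups hold arrays that stand apart. Its median was 0.10, and -0.02 without the 3 arrays. None passed in limma (0% of all probes did), 4 had an unadjusted p under 0.05 (6.45% against 4.08% of all probes), namely Ndufa5, Atp5pf and Atp5f1d (higher) and Atp5f1c (lower), and 0 passed the methods' t-test (0.626% of all probes). When the 3 arrays were left out, 0 passed in limma (0% of all probes) and 1, Ndufc2, had an unadjusted p under 0.05 (6.52% of all probes).

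**Figure D5:**
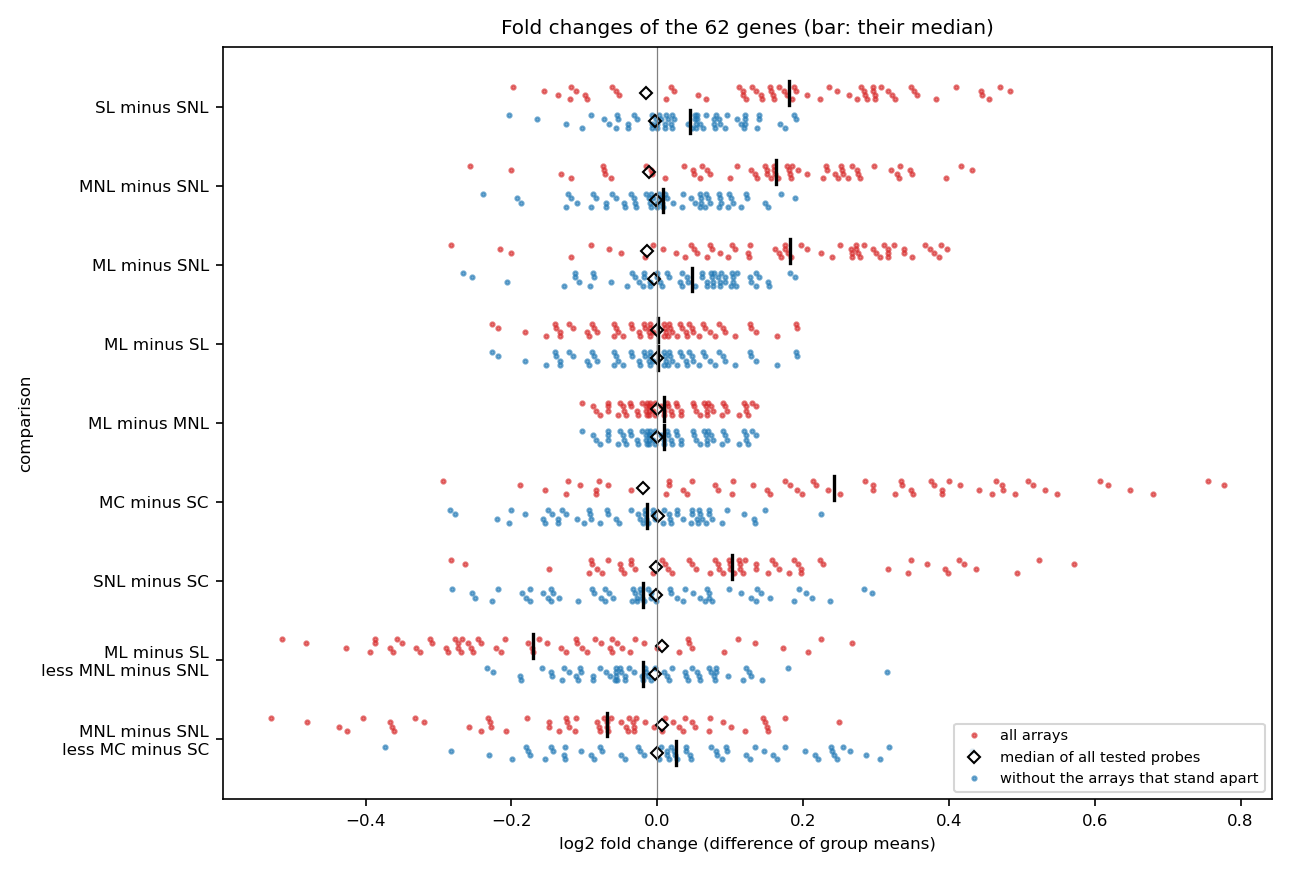
Log2 fold change of each of the 62 genes (points) in the 9 comparisons, over all arrays (red) and without the arrays that stand apart (blue); black bars are medians of the 62 genes and diamonds those of all probes tested. The medians over all arrays lie right of the diamonds in the comparisons with SNL or SC as reference (medians 0.18, 0.16, 0.18, 0.24 and 0.10), and the medians without the 3 arrays lie in these comparisons between -0.02 and 0.05.

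Whether the METH effect differed between sides or between rats was tested as a difference of differences. ML minus SL less MNL minus SNL had a median of -0.17 over the 62 genes, and -0.02 without the 3 arrays. MNL minus SNL less MC minus SC had a median of -0.07, and 0.03 without them. None of the 62 passed in limma in either (0% of all probes did), and 0 had an unadjusted p under 0.05 (2.14% and 1.69% of all probes). Without the 3 arrays 0 passed in either (0% of all probes), and 1 gene (Ndufaf1) and 3 genes (Ndufc2, Atp5mc2 and Ndufaf3) had an unadjusted p under 0.05 (1.69% and 3.78% of all probes). The largest values were -0.51 ± 0.29 for Atp5pd and 0.27 ± 0.15 for Ndufaf1 in the former, and -0.53 ± 0.41 for Ndufb2 and 0.25 ± 0.18 for Ndufaf7 in the latter (SE). Leaving out the 3 arrays changed them to -0.23 for Atp5pd and 0.32 for Ndufaf1, and to -0.10 for Ndufb2 and 0.24 for Ndufaf7. Cox8a was at -0.48 ± 0.25 in the former over all arrays and at -0.23 without the 3. The largest values of the latter without the 3 arrays were -0.37 for Ndufa10l1 and 0.43 for Atp5mc2. Over all arrays the 95% intervals of 21 and of 23 genes lay inside ±0.5.

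Over the 6 groups together, the moderated F test in limma called 0 of the 62 genes (0.370% of all probes) and 15 had an unadjusted p under 0.05 (7.13% of all probes). Without the 3 arrays 0 were called (0.298% of all probes) and 2 genes, Ndufa10l1 and Ndufa10, had an unadjusted p under 0.05 (4.70% of all probes). The median within-group SD of the 62 genes was 0.25 over all arrays, above the 0.22 of all probes, and 0.15 without the 3 arrays, below the 0.20 of all probes.

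Other genes of mitochondria and energy metabolism were set beside the 62 genes in the arrays that stand apart. Lists of 14 tested genes of the citric acid cycle and pyruvate dehydrogenase and of 10 electron carriers and carriers of ATP had median deviations of 0.10 and 0.01 in SNL replicate 19, 0.15 and 0.02 in SC replicate 6, and 0.20 and 0.30 in SC replicate 8a. The 14 glycolysis genes had 0.15, 0.14 and -0.01, and 16 assembly factors of complexes other than the Ndufaf series had -0.04, 0.06 and 0.05. Of these factors Cox17 lay at -1.37, -1.29 and -1.54. Surf1, Cox19 and Timmdc1 were also below their medians in all 3 arrays, and Lrpprc, Tmem70, Bcs1l, Acad9 and Cox15 were above theirs. The summed signal of the factors was 12.67, 12.60 and 12.67, against 12.65 to 12.91 in the other arrays. The median of none of these 4 lists was as low as that of the oxidative phosphorylation genes. The 13 mitochondrial antioxidant and uncoupling genes had -0.25, -0.05 and -0.02 (other arrays -0.11 to 0.14), but their summed signal was 13.18, 13.13 and 13.43 (log2), below the 13.59 to 13.92 of the others. Of these genes Sod1, Gpx4 and Gpx1 were below their medians in all 3 arrays, and Sod2 and Prdx3 were above them. The 56 genes of mitochondrial ribosomal proteins had -0.52, -0.53 and -0.28, and the 60 genes of cytoplasmic ribosomal proteins -1.03, -0.93 and -0.63, against -0.12 to 0.19 in the other arrays. The summed signal of the cytoplasmic ribosomal protein genes was 16.91, 16.88 and 17.19 (log2) in the 3 arrays and 17.61 to 17.93 in the others. In no comparison did a gene of these lists pass the adjusted threshold in limma, which at most 0.123% of all probes passed.

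Of the markers of cell types, those of microglia lay low in the same arrays. Of 12 listed genes 9 were tested, with median deviations of -0.66, -0.58 and -0.39 in SNL replicate 19, SC replicate 6 and SC replicate 8a, against -0.19 to 0.40 in the other arrays. Aif1, C1qa, C1qb, C1qc, Trem2 and Tyrobp were below their medians in all 3 arrays and P2ry12 was above it in all 3. The defining marker Cx3cr1 was detected on 0 arrays. The summed log2 signal of the 9 genes was 11.93 to 12.46 in SC, 12.32 to 12.41 in MC, 11.84 to 12.40 in SNL, 12.35 to 12.83 in SL, 12.14 to 12.52 in MNL and 12.30 to 12.62 in ML arrays. It was 12.43 in SC replicate 8a, inside the 11.98 to 12.83 of the other arrays. Of 10 endothelial and blood markers 3 were tested, with median deviations of -0.07, 0.11 and 0.44 in SNL replicate 19, SC replicate 6 and SC replicate 8a. These lay inside the -0.36 to 0.44 of the other arrays. The summed signal of the 3 markers was 12.23, 12.09 and 12.30 in the same order and 12.41 to 13.86 in the others. Among the 3 markers Hbb, a globin of red blood cells, lay at -1.19, -1.58 and -1.51. Cldn5 lay at -0.07, 0.11 and 0.44, and Vwf was above its median in all 3 arrays. Flt1 and Alas2 were detected on 0 arrays. The median deviations of 12 tested markers of medium spiny neurons were 0.42, 0.12 and 0.25 and those of 12 neuron markers 0.32, 0.23 and 0.02. The summed signal of the neuron markers was 14.90, 14.99 and 14.89, above the 14.37 to 14.75 of the other arrays. Gad1, Syt1, Snap25, Nefl, Stmn2 and Nefm were above their medians in all 3 arrays. Eno2, Uchl1 and Tubb3 were below theirs in all 3, and the remaining neuron markers were mixed. The part of these cell types in the signals of the oxidative phosphorylation genes was not tested, and fewer cells of a type and less RNA per cell cannot be told apart in these tissue samples. The labels state that the RNA showed no degradation, with no value for any array.

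Of the 7 genes that were not tested, Ndufs4, a complex I subunit, and Cox6a2, Cox8c and Atp5mc3 were detected on 0 of 31 arrays. Ndufb4 was detected on 2 arrays (ML replicate 10 and SNL replicate 23), Ndufs6-ps1 on 1 (ML replicate 18) and Cox8b on 3 (ML replicates 10 and 30 and SNL replicate 11). A probe that is not detected gives no level for its gene, and no comparison of groups was made for them.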

How the data were processed

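Signal intensities and detection p-values of 31 Illumina RatRef-12 arrays were deposited by the authors, per the labels from BeadStudio: intensity per probe with the background subtracted and no normalization between arrays, and a detection p-value against negative controls. The authors also deposited log2 values, which equal log2 of the signal (floor 1) less a constant per probe; the scale and direction are known, the centring constant is not, and column medians were -0.12 to 0.38. Their column for ML replicate 22 holds 1 minus the detection p and was left out.

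The signals of ML replicate 22 and SL replicate 32 stood 4 rows off the probe names and were moved back (correlation 0.21 and 0.22 before, 0.99 and 0.99 after); 22519 of 22523 probes were used. Symbols came from the platform annotation, updated through RefSeq gene tables: 13790 probes have 1 symbol and 8729 none.

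Intensities were processed with neqc in limma 3.58.1 (R 4.3.3; normexp on the detection p, offset 16, quantile normalization, log2). The 9732 probes detected at p under 0.01 on at least 4 arrays entered 1 fit of 6 group means (lmFit, eBayes; 25 residual and 4.85 prior degrees of freedom), with Benjamini-Hochberg adjustment over all of them at 0.05 per comparison. The methods' t-test asked for 1.7-fold at p under 0.025 and was run on all 22519 probes, undetected ones included. The number of arrays limits the precision. The fit was also run on simulated data with independent noise for each probe and array. These held no joint shift like that of the arrays that stand apart, so the run cannot show how the fit deals with one. Figures used Python 3.11.15 with matplotlib 3.10.9.

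Named genes were those with the 2 largest positive and negative changes per comparison, the brightest and dimmest of each complex, paired isoforms and, by role, others. The members, the gene lists and the tests were chosen with earlier results of these data known. Alternatives were other background correction, scaling, filters, array weights, a block, the deposited log2 table and leaving out arrays.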

Additional observations from a re-analysis of the deposited data

Results flagged for a closer look

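Values here are deviations from a gene's median over 31 arrays, on the log2 scale. An array far from the rest of its group was found in 22 of 132 groups of values examined. These were 7 medians and 15 genes in 6 groups each. Chance would give about 6.6 if these items were independent and had not been chosen from the data. Some of the genes were named for the size of a difference in these arrays, and the medians include such genes. The same array also recurs across items, so the count of 22 cannot be weighed against chance.

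SNL replicate 19 lay far below the other 4 SNL arrays for the median of the 62 genes (-0.79), of complex I (-1.07), complex III (-0.44), complex IV (-0.86) and complex V (-0.93). It did so also for Ndufb2 (-1.65), Ndufa11 (-1.70), Cox5b (-1.59), Atp5pd (-1.47), Atp5mc1 (-1.26), Atp5mc2 (-1.36), Cox6a1 (-0.90) and Uqcrb (-0.95). Over all 62 genes it was the far low array of its group for 23 (37.1%), against 3.65% of all probes tested. The part of the tissue, the RNA or the hybridisation in this was not tested.

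The other arrays found in this way deviated by 0.51 or less. MC replicate 5 was high for the median of the 62 genes (0.064) and for Ndufs1 (0.23), and MNL replicate 9 was low for the median of the 62 genes (-0.11), of complex III (-0.14) and for Uqcrb (-0.28). ML replicate 10 was low for complex IV (-0.135) and ML replicate 22 for Sdha (-0.21). SL replicate 32 was high for Atp5f1b (0.086) and SL replicate 12 for Atp5pd (0.51). SC replicates 6 and 8a are a pair in a group of 4, so neither was far from the rest for these medians and genes.

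Among the genes that entered no comparison, 3 had a probe detected in hemiparkinsonian rats and on 0 of 8 control arrays: Cox8b on 3, Ndufb4 on 2 and Ndufs6-ps1 on 1 of 23 arrays. Of all 938 probes detected on 1 to 3 arrays, 47.3% were on 0 control arrays.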

How the results depend on the processing

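No gene of the 62 passed the adjusted threshold in any of the 9 comparisons or in the F test under any setting tried. In the main fit 0% to 0.123% of all probes passed in a comparison and 0.370% in the F test. At such shares a count of 0 among 62 genes says little about these genes. The shares of all probes under most other settings are not given here. The settings were scaling to a common median, a floor of 16 in place of the background correction, the deposited log2 table, all probes or only probes detected on every array, no realigned arrays, array weights, only the groups compared, and leaving out each array in turn. Each gene had 1 probe, so taking all probes of a gene changed nothing. Without the 3 arrays that stand apart, an alternative chosen after seeing the data, the median for MC minus SC went from 0.24 to -0.014, and the fold change of Ndufa11 in it from 0.75 to -0.026. Leaving out 1 array moved the median of SL minus SNL between 0.04 (without SNL replicate 19) and 0.26, MNL minus SNL between 0.01 (SNL replicate 19) and 0.26, ML minus SNL between 0.05 (SNL replicate 19) and 0.26, MC minus SC between 0.10 (SC replicate 6) and 0.37, and SNL minus SC between -0.03 (SC replicate 6) and 0.27 (SNL replicate 19). For ML minus SL less MNL minus SNL it lay between -0.25 and -0.02 (SNL replicate 19), and for the METH effect on the non-lesioned side less that in controls between -0.24 (SNL replicate 19) and 0.05 (SC replicate 6). For ML minus SL and ML minus MNL it stayed between -0.02 and 0.03. With array weights the medians of SL minus SNL and MC minus SC were 0.10 and 0.05, and the difference of METH effects between hemiparkinsonian and control rats changed sign, to 0.03.

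No paired analysis was possible because the labels pair no striata. A replicate block assumed from neighbouring striatum numbers had a correlation of 0.35 and left 0 genes called. The share of all probes called with this block is not given, so that count cannot be weighed. Probes near background (Cox6c, Ndufaf2) and 4 to 6 arrays a group limit what could be seen.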
